A study of Mus musculus with 6 samples.

Results

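The genes described here are the chaperones, folding enzymes, degradation factors and stress sensors of the endoplasmic reticulum (ER). They were taken from the expression table by gene symbol from a list of 40 names, of which 38 matched a row among the 16880 genes of the table. Of the remaining names, Vimp is an older symbol of Selenos, which is among the 38, and Ero1l is an older symbol of Ero1a, which the table lists under that current symbol. RNA was sequenced from 6 libraries, 3 of cells stimulated with 10 ng/mL IL-1β (the IL-1β group) and 3 of cells that received 10 ng/mL IL-1β together with 10 μmol/L NP-G2-044, a small molecule inhibitor of the actin-bundling protein FSCN1, for 24 h according to the methods. All 6 therefore carried IL-1β, an inflammatory cytokine, and the DMSO-only cells of the methods were not analysed here. The sample labels give ATDC5, a single mouse chondrogenic line, while the methods describe primary articular chondrocytes, and the treatment field of the inhibitor group reads NP-G2-047 where its titles read NP-G2-044. No label states that the replicates were separate cultures, although the methods call them biological, so the p-values measure the spread between these libraries, part of which may be technical.

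The ER is where secreted and membrane proteins enter the secretory pathway, fold and acquire disulfide bonds and sugars, a heavy task in cells that make cartilage matrix. When unfolded proteins accumulate, the membrane sensors, IRE1α (Ern1), ATF6 and PERK (Eif2ak3), start the unfolded protein response. IRE1α splices the messenger RNA of Xbp1, ATF6 is cut to release a transcription factor, and both raise chaperone and degradation genes through ER stress elements in promoters, while PERK phosphorylates eIF2α and thereby favours translation of ATF4, which acts through amino acid response elements.

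The promoters of Hspa5, Hsp90b1 and Herpud1 are shown because they carry the elements of the response in 3 different arrangements and because these genes differed in their change. The windows are from RefSeq on GRCm38.p6, run from 250 bases before to 50 bases after the annotated start, and are written 5′ to 3′ on the strand of the gene. Capitals mark the ER stress element (ERSE, CCAAT and CCACG separated by 9 bases), ERSE-II (ATTGG and CCACG separated by 1 base) and, in Herpud1, the core of an amino acid response element (AARE, TGATGNAA). Hspa5 lies on the plus strand (window chr2:34771840-34772139) with 1 ERSE 65 bases upstream of the start, Hsp90b1 on the minus strand (chr10:86705395-86705694) with 2 ERSE 212 and 107 bases upstream, the nearer of them on the opposite strand. Herpud1 lies on the plus strand (chr8:94386179-94386478) with 1 ERSE-II 52 bases upstream and the AARE core 112 bases upstream on the opposite strand.
Hspa5: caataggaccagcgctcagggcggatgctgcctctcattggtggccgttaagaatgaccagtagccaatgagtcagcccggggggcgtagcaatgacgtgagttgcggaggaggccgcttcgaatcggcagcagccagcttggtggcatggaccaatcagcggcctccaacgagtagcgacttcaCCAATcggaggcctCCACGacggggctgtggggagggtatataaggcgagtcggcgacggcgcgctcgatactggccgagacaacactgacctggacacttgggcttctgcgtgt
Hsp90b1: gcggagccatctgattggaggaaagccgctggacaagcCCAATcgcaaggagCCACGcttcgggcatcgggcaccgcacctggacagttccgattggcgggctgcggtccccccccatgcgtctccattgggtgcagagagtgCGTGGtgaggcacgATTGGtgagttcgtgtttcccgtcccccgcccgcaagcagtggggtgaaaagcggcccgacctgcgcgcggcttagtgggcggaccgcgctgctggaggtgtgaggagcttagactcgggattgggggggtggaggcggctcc
Herpud1: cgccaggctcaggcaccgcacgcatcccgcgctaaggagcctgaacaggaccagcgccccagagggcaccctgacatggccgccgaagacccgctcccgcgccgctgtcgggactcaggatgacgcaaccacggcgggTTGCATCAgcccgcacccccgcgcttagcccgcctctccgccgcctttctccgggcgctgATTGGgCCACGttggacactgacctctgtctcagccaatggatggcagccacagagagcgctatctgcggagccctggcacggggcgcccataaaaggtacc

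Of the 38 genes, 37 passed edgeR's filter on low counts, with 144 to 23044 reads per library, and 1, Derl3, did not. Addition of NP-G2-044 to IL-1β was accompanied by a higher level of 20 of the 37 tested genes and a lower level of 11, called by the quasi-likelihood test of edgeR at a Benjamini-Hochberg adjusted p below 0.05 over all 11983 genes tested. These 31 calls were 83.8% of the tested ER genes, against 80% of all tested genes, so that being called at all did not set them apart. By direction, 54.1% were higher against 40.2% of all tested genes, and 29.7% were lower against 39.8%. With a log2 fold change above 1 in size as well, 7 of the 37 (18.9%) were higher, namely Wfs1, Atf6, Hspa5, Herpud1, Ern1, Xbp1 and Hyou1, against 6.48% of all tested genes. None was lower past both cutoffs, in edgeR, DESeq2 or limma, against 10.1% of all tested genes, while the same 11 had a log2 fold change below 0 at an unadjusted p below 0.05. The 3 libraries of one group did not overlap with those of the other in normalized counts for 34 of the 37 genes (91.9%), against 80.8% of all tested genes. The median log2 fold change of the 37 was 0.20, against 0.00 for all tested genes. These counts leave out Ero1a, which the list names by its older symbol Ero1l, although it was higher past both cutoffs (log2 fold change 1.51).

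**Figure D1:**
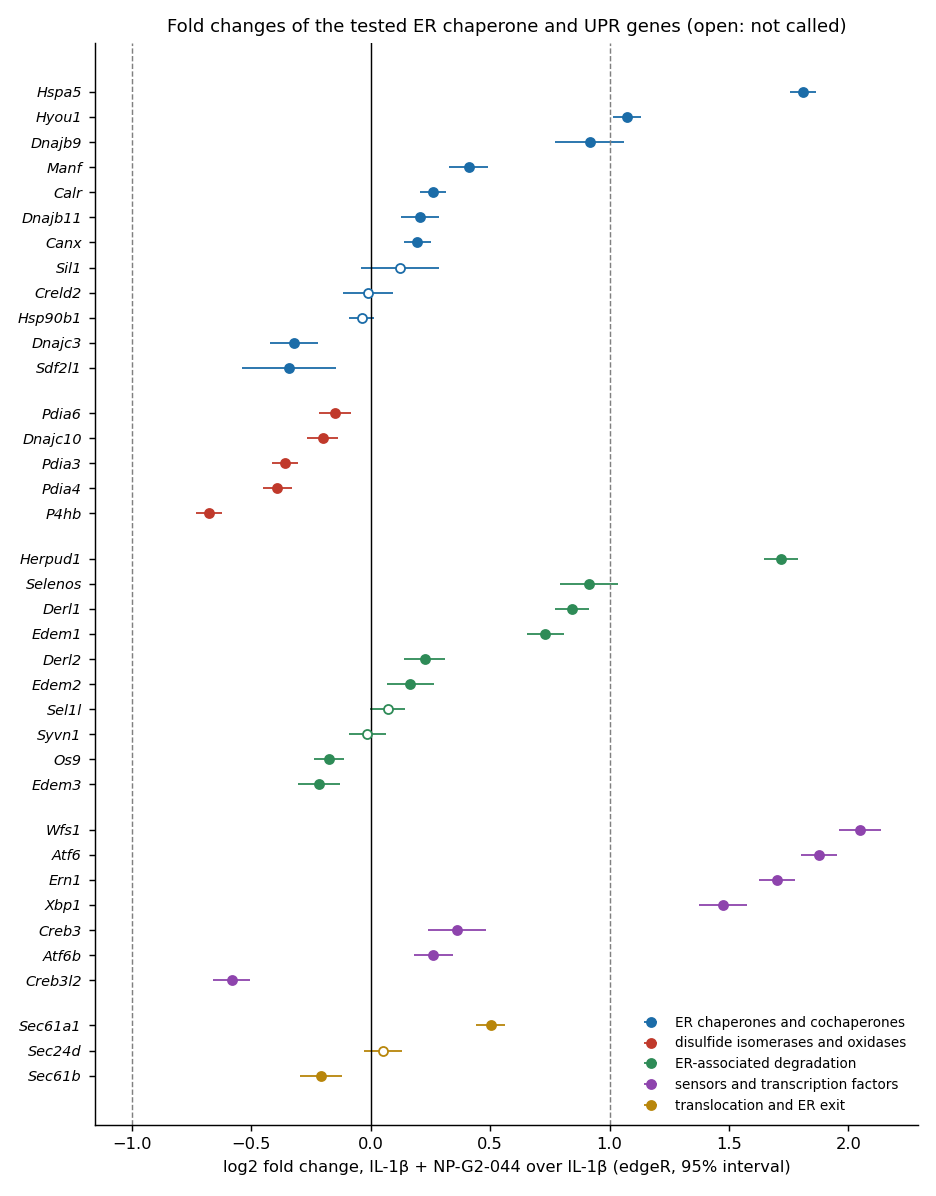
Log2 fold change (x axis, with over without NP-G2-044) of the 37 tested ER genes, one row each, grouped by role and sorted within a role. Points are edgeR estimates, lines their 95% intervals, open points genes not called, and dashed lines a log2 fold change of 1 in size; 7 genes lie beyond the right-hand line and none beyond the left.

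Library totals were 16615824 to 16878164 reads in the IL-1β libraries and 17529844 to 17735860 with NP-G2-044. Levels are given in TPM, transcript abundances that the authors scaled by gene length and by all RNA of a library, so that in these bulk samples fewer cells of a type and less RNA per cell cannot be told apart. Of 15 chondrocyte markers 4 (Acan, Col9a1, Col9a2 and Hapln1) had no row in the expression table. The 11 measured markers had a summed level of 22.5 to 23.3 TPM with IL-1β and 17.7 to 18.4 TPM with NP-G2-044. The type II collagen gene Col2a1, which defines chondrocytes, was near 0 (0.20 to 0.24 and 0.02 to 0.06 TPM), and Matn1 had no read in any library. Nearly all of the sum came from 3 genes, of which Sox5 (10.2 to 10.3 and 2.03 to 2.52 TPM) and Col11a2 (4.75 to 5.18 and 3.23 to 3.59 TPM) were lower with NP-G2-044 and Sox9 (5.94 to 7.21 and 11.3 to 11.4 TPM) was higher. The other 8 measured markers, most of them cartilage matrix genes, were each below 1 TPM in every library. The summed level of 10 fibroblast markers was 5343 to 5530 TPM with IL-1β and 1044 to 1128 TPM with NP-G2-044. Nearly all of it came from S100a4 (4237 to 4379 and 698.7 to 785.9 TPM) and Col1a2 (1082 to 1130 and 325.0 to 338.3 TPM). Col1a1, Col3a1 and Dcn, at most 8.94 TPM, also fell, whereas Pdgfra rose (2.16 to 2.69 and 8.49 to 9.03 TPM). Thy1, Dpt, Lum and Fap were at most 0.19 TPM. The summed level of the 5 macrophage markers with a row was 23.8 to 24.6 and 128.6 to 140.01 TPM. Its rise came from Cd68 (10.6 to 14.0 and 123.9 to 134.7 TPM), a lysosomal protein that other cells also make, while Cd14, the other main part of the sum with IL-1β, was lower with NP-G2-044 (10.3 to 13.3 and 4.50 to 5.09 TPM), and Ptprc, the pan-leukocyte marker, was at 0 in every library. Osteoblast (4 of 6 with a row, 2.89 to 4.59 and 0.53 to 0.88 TPM), adipocyte (3 of 5, 2.87 to 5.09 and 0.36 to 0.74 TPM), endothelial (4 of 5, at most 0.55 TPM) and skeletal muscle (3 of 5, at most 0.44 TPM) markers were low. The part of these marker differences in the results below was not tested.

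The ER lumenal chaperones diverged. Hspa5 encodes BiP, the Hsp70 of the ER lumen that holds unfolded chains and keeps the sensors inactive (Entrez gene 14828, chromosome 2, 34772090 to 34776529 on GRCm38). Its level was 250.7, 259.2 and 259.2 TPM in the IL-1β libraries and 889.9, 885.5 and 862.8 TPM with NP-G2-044. All 3 inhibitor-treated libraries lay far above all 3 controls, and the fitted change was 3.51-fold (log2 fold change 1.81, SE 0.027, adjusted p = 1.82e-48). Hsp90b1 encodes GRP94, the Hsp90 of the same compartment, and is commonly induced together with BiP (Entrez gene 22027, chromosome 10, 86690841 to 86705444). It measured 577.3, 580.4 and 584.5 TPM with IL-1β and 554.2, 556.9 and 547.8 TPM with NP-G2-044. Its TPM values were slightly lower in each treated library, but the log2 fold change of -0.04 (95% interval -0.09 to 0.01) did not pass the test (adjusted p = 0.166). Consequently the ratio of Hspa5 to Hsp90b1 TPM was 0.434, 0.447 and 0.444 with IL-1β and 1.61, 1.59 and 1.58 with NP-G2-044, a pair picked after its values were seen and given without a test. Exons of Hsp90b1 overlap those of an opposite-strand transcript, 1810014B01Rik, over 10.3% of their length, and none of the sources used here says if reads were counted by strand.

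Cochaperones of BiP also moved unequally. Hyou1 encodes GRP170, a large Hsp70 relative that exchanges the nucleotide on BiP (Entrez gene 12282, chromosome 9, 44379490 to 44392369). It was at 62.2, 67.1 and 67.1 TPM with IL-1β and 133.6, 136.0 and 133.8 TPM with NP-G2-044. The groups were well apart, by 2.10-fold (log2 fold change 1.07, SE 0.030, adjusted p = 3.41e-36), just past the fold cutoff. Sil1, the other nucleotide exchange factor of BiP, was at 14.9 ± 0.423 and 15.9 ± 1.14 TPM (SD, n = 3) and did not pass the test (95% interval of the log2 fold change -0.04 to 0.28). Dnajb9, the J-domain protein ERdj4 that recruits BiP to IRE1α, measured 16.0, 13.4 and 15.6 TPM with IL-1β and 29.0, 27.6 and 26.7 TPM with NP-G2-044. Every treated library was above every control, and the log2 fold change of 0.92 (SE 0.072, adjusted p = 7.32e-17) fell just short of the fold cutoff. Of the other J-domain proteins, Dnajb11 (ERdj3), which binds substrates with BiP, rose by 0.21 on the log2 scale, and Dnajc3 (p58IPK), which also restrains PERK, fell by 0.32 on that scale. Sdf2l1, a partner of ERdj3, was at 23.2, 20.0 and 20.2 TPM with IL-1β and 17.9, 15.1 and 16.1 TPM with NP-G2-044. Its libraries did not overlap either, but the fall was small and the least precise of the tested members (log2 fold change -0.34, SE 0.098, adjusted p = 0.00139).

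The lectin chaperones calreticulin and calnexin, which retain glycoproteins until they are folded, changed little. Calr was at 513.8, 527.5 and 505.2 TPM with IL-1β and 599.6, 612.4 and 601.5 TPM with NP-G2-044, and Canx at 163.6, 174.3 and 162.8 TPM and then 190.8, 188.3 and 181.1 TPM. Neither gene overlapped between the groups, and the increases were 1.20-fold for Calr (log2 fold change 0.26, SE 0.027, adjusted p = 1.76e-12) and 1.14-fold for Canx (0.20, SE 0.028, adjusted p = 1.81e-08). Manf and Creld2 encode small secreted ER proteins that are known as ER stress-inducible. Manf was at 185.5, 178.8 and 180.8 TPM with IL-1β and 227.5, 242.1 and 243.5 TPM with NP-G2-044, a 1.33-fold increase (log2 fold change 0.41, SE 0.040, adjusted p = 1.85e-13). Creld2 was at 54.2, 52.2 and 52.4 TPM and at 51.4, 50.3 and 52.8 TPM. Its groups overlapped, with a log2 fold change of -0.01 (95% interval -0.12 to 0.09), whereas those of Manf were clearly apart.

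The 5 disulfide isomerases and relatives among the 38 genes (P4hb, Pdia3, Pdia4, Pdia6 and Dnajc10) were lower with NP-G2-044, but close relatives outside the 38 were not uniformly so. P4hb encodes protein disulfide isomerase, which is also the β subunit of the prolyl 4-hydroxylase of collagen. It measured 607.6, 605.1 and 592.3 TPM with IL-1β, the highest mean of all 38 genes in that group, and 366.8, 374.4 and 362.9 TPM with NP-G2-044. The groups were well separated, and the fall of 0.68 on the log2 scale (SE 0.027, adjusted p = 4.31e-29) was the largest fall among the tested ER genes. Pdia4 (ERp72) was at 126.6, 130.3 and 128.5 TPM with IL-1β and 96.6, 96.5 and 94.2 TPM with NP-G2-044, again without overlap (log2 fold change -0.39, SE 0.031, adjusted p = 1.1e-16). Pdia3 (ERp57), the partner of the lectin chaperones, had 385.5 ± 5.53 and 294.0 ± 0.729 TPM (log2 fold change -0.36), Pdia6 had 117.4 ± 2.81 and 103.6 ± 2.03 TPM (-0.15), and Dnajc10 (ERdj5), a reductase that acts in degradation, had 65.3 ± 1.23 and 55.5 ± 0.529 TPM (-0.20; SD, n = 3). Summed over the 5 genes the level was 1298 ± 10.8 TPM with IL-1β and 916.8 ± 8.06 TPM with NP-G2-044, or 0.706 times as much. Ero1a, the oxidase that recharges the isomerases and the gene that the list names as Ero1l, was at 29.8, 31.6 and 29.9 TPM with IL-1β and 87.5, 82.3 and 84.6 TPM with NP-G2-044. It thus moved opposite to the 5 genes, by 2.85-fold (log2 fold change 1.51, SE 0.034, adjusted p = 1.21e-40). Other disulfide enzymes and thioredoxin-fold proteins of the ER were named after their values were seen. Pdia5 (log2 fold change 0.60, adjusted p = 1.08e-13), Tmx2 (0.51), Erp44 (0.34), Txndc11 (0.17) and Txndc5 (0.12) also rose. Prdx4 (-0.75), Tmx3 (-0.58), Qsox1 (-0.53), Tmx1 (-0.19), Erp29 (-0.14) and Txndc12 (-0.09) fell. Tmx4 and Ero1b did not pass the test. Hspa5 accounted for 5.80% to 6.02% of the summed TPM of all 38 genes in the IL-1β libraries and 16.9% to 17.2% with NP-G2-044, and the isomerases for 29.9% to 30.3% and 17.7% to 17.9%. The 38 genes together went from 4323 ± 12.7 to 5149 ± 51.5 TPM (SD, n = 3), 1.19 times as much.

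**Figure D2:**
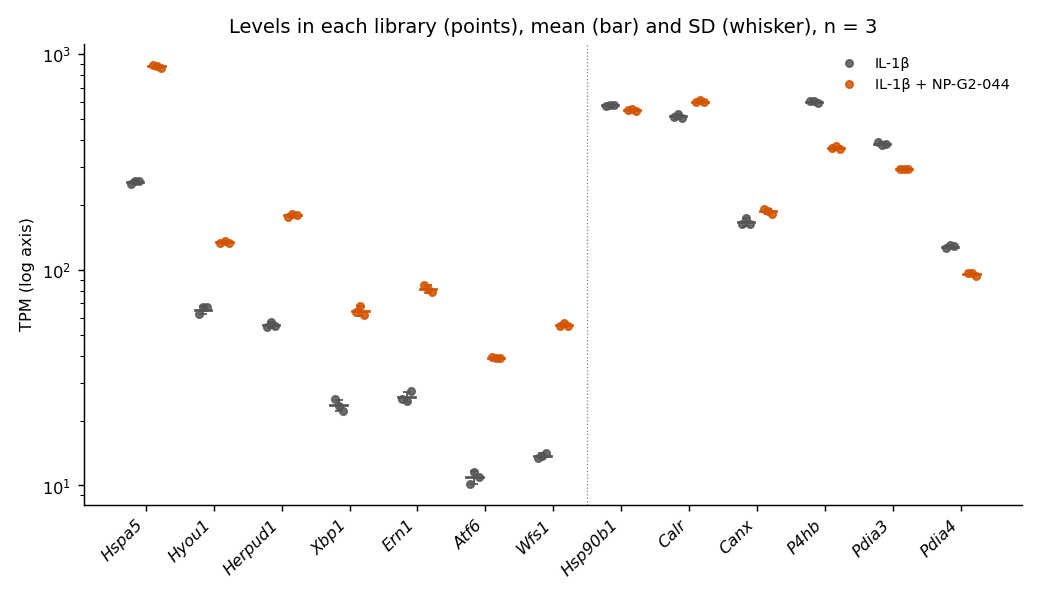
TPM (log axis) of 13 named ER genes in each of the 3 IL-1β (grey) and 3 IL-1β plus NP-G2-044 (orange) libraries, with the mean (bar) and SD (whisker). Left of the dotted line are the 7 genes past both cutoffs, and to its right are chaperones and isomerases of high level, where Hsp90b1 sits at 547.8 to 584.5 TPM in all 6 libraries and P4hb, Pdia3 and Pdia4 are lower with NP-G2-044.

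In ER-associated degradation, which returns misfolded proteins to the cytosol for the proteasome, 6 of the 10 tested genes were higher, 2 lower and 2 not called. The share called, 80%, was that of all tested genes, of which 40.2% were higher and 39.8% lower. Herpud1 encodes a membrane protein that assembles the HRD1 ubiquitin ligase complex (Entrez gene 64209, chromosome 8, 94386429 to 94395371). It was at 54.3, 57.6 and 55.0 TPM with IL-1β and 175.7, 181.8 and 179.4 TPM with NP-G2-044. The groups differed 3.29-fold with no overlap (log2 fold change 1.72, SE 0.036, adjusted p = 4.8e-42), and Herpud1 was the only tested gene of this role past both cutoffs. The ligase itself, Syvn1 (HRD1), was at 44.7, 44.1 and 44.1 TPM with IL-1β and 41.5, 44.7 and 42.9 TPM with NP-G2-044, with overlapping groups (log2 fold change -0.01, 95% interval -0.09 to 0.06). Its partner Sel1l was at 23.1, 25.1 and 24.5 TPM and at 25.2, 24.6 and 24.7 TPM. Sel1l overlapped between the groups in TPM but not in normalized counts and did not pass the test (log2 fold change 0.07, 95% interval -0.0021 to 0.14, adjusted p = 0.0696). Thus the scaffold rose while neither core subunit of the complex passed the test.

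The EDEM proteins trim mannose from misfolded glycoproteins and so mark them for degradation. Edem1 was at 15.7, 16.5 and 16.4 TPM with IL-1β and 27.3, 26.0 and 26.2 TPM with NP-G2-044, a 1.66-fold increase without overlap (log2 fold change 0.73, SE 0.040, adjusted p = 2.87e-23). Edem2 rose by 0.17 and Edem3 fell by 0.22 on the log2 scale, so the 3 family members did not move as one. Os9, a lectin that delivers glycoproteins to the ligase, fell by 0.18 on that scale. The derlins form part of the channel through which proteins leave the ER. Derl1 had 42.7 ± 0.931 and 74.8 ± 1.57 TPM (SD, n = 3; log2 fold change 0.84) and Derl2 had 24.3 ± 0.343 and 28.4 ± 1.11 TPM (0.23). Derl3 was at 0.19, 0.29 and 0.10 TPM with IL-1β and 0.38, 0 and 0 TPM with NP-G2-044, from 1 to 3 reads and 0 to 4 reads per library, too few for a comparison. Selenos, the selenoprotein that recruits the p97 ATPase to the derlins, had 34.5 ± 0.683 and 63.8 ± 4.22 TPM (SD, n = 3; log2 fold change 0.91), like Derl1 short of the fold cutoff.

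The sensors and transcription factors had the largest median change of the 5 role groups, a log2 fold change of 1.48 over 7 genes. Single genes ran from -0.58 (Creb3l2) to 2.05 (Wfs1), and the median depends on which genes are placed here. The group counts Wfs1, an ER membrane protein, and leaves out the sensor PERK (Eif2ak3, 0.24), which is described below with its own arm. Of the 7 genes 6 were higher and 1 lower, against 40.2% higher and 39.8% lower among all tested genes. Ern1, the sensor kinase and RNase IRE1α (Entrez gene 78943, chromosome 11, 106397620 to 106487796), was at 25.1, 24.7 and 27.3 TPM with IL-1β and 85.6, 81.3 and 78.7 TPM with NP-G2-044. Its target Xbp1 (Entrez gene 22433, chromosome 11, 5520641 to 5525993) was at 25.1, 23.4 and 22.3 TPM and at 63.6, 68.4 and 61.8 TPM. Neither overlapped between the groups, and the increases were 3.25-fold for Ern1 (log2 fold change 1.70, SE 0.037, adjusted p = 1.9e-40) and 2.78-fold for Xbp1 (1.48, SE 0.050, adjusted p = 6.24e-31). Counts per gene do not separate spliced from unspliced Xbp1, so splicing by IRE1α was not measured.

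Atf6 and its close relative Atf6b are both membrane-bound transcription factors that are cut in the Golgi under ER stress. Atf6 (Entrez gene 226641, chromosome 1, 170704457 to 170868585) was at 10.2, 11.6 and 11.0 TPM with IL-1β and 39.3, 39.0 and 39.0 TPM with NP-G2-044. This was a 3.67-fold increase without overlap (log2 fold change 1.88, SE 0.038, adjusted p = 9.26e-43). Atf6b was at 41.4, 46.1 and 44.7 TPM and at 52.3, 53.2 and 49.6 TPM, a 1.20-fold increase (log2 fold change 0.26, SE 0.041, adjusted p = 1.25e-07). Atf6b thus remained the more abundant of the pair in each library, with an Atf6 to Atf6b ratio of 0.245 to 0.252 with IL-1β and 0.732 to 0.786 with NP-G2-044. Wfs1 encodes wolframin, an ER membrane protein known to restrain ER stress signaling (Entrez gene 22393, chromosome 5, 36966104 to 36988982). It was at 13.4, 13.7 and 14.1 TPM with IL-1β and 54.9, 56.6 and 55.0 TPM with NP-G2-044. With a 4.14-fold increase (log2 fold change 2.05, SE 0.043, adjusted p = 1.2e-41) it had the largest change of all 37 tested ER genes.

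Creb3 and Creb3l2 are built like ATF6, and Creb3l2 (BBF2H7) is known for its role in matrix secretion by chondrocytes. Creb3 was at 29.9, 27.7 and 32.0 TPM with IL-1β and 38.6, 37.3 and 37.0 TPM with NP-G2-044 (log2 fold change 0.36, SE 0.061, adjusted p = 5.52e-07). Creb3l2 moved the other way, from 31.6, 32.8 and 33.7 TPM to 21.5, 22.9 and 21.4 TPM, 0.668 times as much (log2 fold change -0.58, SE 0.038, adjusted p = 8.1e-20). In both, no treated library overlapped a control. Exons of Creb3 overlap those of Tln1 on the opposite strand over 15.2% of their length and those of Gba2 over 5.61%, and without strand their reads could not be told apart.

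Proteins enter the ER through the SEC61 channel and leave it in COPII vesicles. Sec61a1, the pore subunit, was at 140.04, 153.9 and 141.1 TPM with IL-1β and 206.4, 201.3 and 195.0 TPM with NP-G2-044, without overlap (log2 fold change 0.50, SE 0.030, adjusted p = 5.36e-21). Its exons overlap those of the opposite-strand transcript Gm44170 over 8.16% of their length. Sec61b, a small subunit of the same channel, went the other way, from 356.1 ± 14.4 to 306.4 ± 2.07 TPM (SD, n = 3; log2 fold change -0.21). Sec24d, a cargo adaptor of COPII that is needed for export of procollagen, was at 31.1, 32.5 and 34.0 TPM and at 32.5, 32.9 and 33.4 TPM. Its groups overlapped, with a log2 fold change of 0.05 (95% interval -0.03 to 0.13).

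By role, the summed level of the 12 chaperones and cochaperones went from 1947 ± 15.3 to 2788 ± 25.7 TPM (SD, n = 3), in which Hspa5 alone went from 256.4 to 879.4 TPM, with a median log2 fold change of 0.20 over single genes. The 11 degradation genes with a row went from 363.2 ± 4.44 to 551.9 ± 7.47 TPM, also with a median of 0.20. The 7 sensors and transcription factors, the least abundant group, went from 180.5 ± 4.18 to 352.3 ± 8.59 TPM, 1.95 times as much. The isomerases were the one group whose sum was lower in every treated library, with a median log2 fold change of -0.36, and the 3 genes of translocation and exit stood at 533.6 ± 7.15 and 540.1 ± 6.49 TPM, with overlapping libraries.

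**Figure D3:**
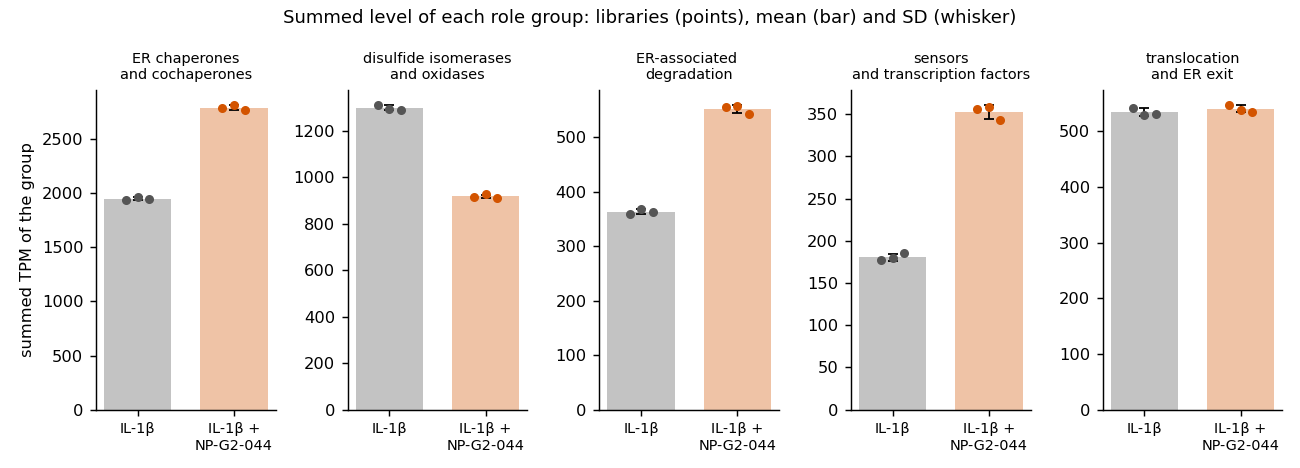
Summed TPM of the genes of each role (y axis, a separate scale starting at 0 in each panel) with IL-1β (grey) and IL-1β plus NP-G2-044 (orange); bars are means, whiskers SDs and points the 3 libraries. The sums were 1.43, 1.52 and 1.95 times as high with NP-G2-044 for chaperones, degradation and sensors, and 0.706 times as high for isomerases.

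Motifs of the response were then set beside these changes. RefSeq windows could be matched to 32 of the 38 genes (Hyou1, Sil1, Manf, Derl1, Atf6 and Sec61a1 had no match), and both strands were searched. An ERSE was present in 9 of the 32 (28.1%; Hspa5, Hsp90b1, Calr, Canx, Dnajc3, Creld2, Pdia6, Syvn1 and Derl3) and in 0.119% of all 32851 windows. An ERSE-II was present in 2 (Dnajb11 and Herpud1) and in 0.0365% of all windows, the UPR element TGACGTGG in 1 (Sec24d) and in 0.676%, and the AARE core in 1 (Herpud1) and in 3.97%. The elements share parts, since the CCACG of ERSE and ERSE-II also lies within the reverse complement of the UPR element. The ERSE was described from promoters of ER chaperone genes, so its share among these genes describes how the list was composed.

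Genes with an ERSE moved in both directions, as did all tested genes (40.2% higher and 39.8% lower). The 8 tested genes with an ERSE comprised 3 higher (Hspa5, Calr and Canx), 2 lower (Dnajc3 and Pdia6) and 3 not called (Hsp90b1, Creld2 and Syvn1), with a median log2 fold change of -0.01 and a range of -0.32 to 1.81. Hspa5, with 1 exact match, was the only one of them past both cutoffs, and Hsp90b1, with the 2 exact matches printed above, was not called. The ERSE-II genes Dnajb11 and Herpud1 had log2 fold changes of 0.21 and 1.72. Only the window of Herpud1 also holds an AARE core, which was present in 3.12% of the 32 genes and in 3.97% of all windows. Whether this core bears on the difference between the 2 genes was not tested. Of the 21 genes with neither ERSE nor ERSE-II, 10 were higher, 9 lower and 2 not called (median 0.07, range -0.68 to 2.05), and 3 of them, Wfs1, Ern1 and Xbp1, were past both cutoffs. A match shows the letters only, not a bound site, and elements outside the window were not looked for. Only exact matches were counted. Elements with a changed letter were left out, such as CCAAT and CCAAC separated by 9 bases in the Hspa5 window.

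**Figure D4:**
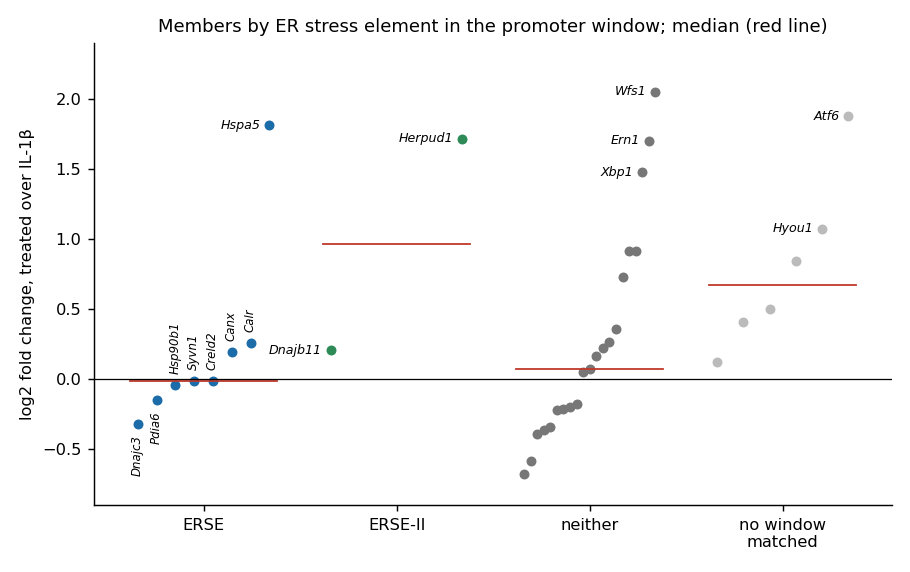
Log2 fold change (y axis, with over without NP-G2-044) of the 37 tested ER genes by the ER stress element found in their promoter window (x axis); each point is a gene and the red line the median of the class. With an ERSE the genes run from -0.32 to 1.81 around a median of -0.01, and Wfs1, Ern1 and Xbp1 lie high in the class with neither element.

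The remaining arm of the response runs from PERK through eIF2α, and a separate list of 12 genes of PERK and eIF2α signaling was described. Phosphorylation of eIF2α and the kinase behind it were not measured, so the part of PERK in these changes was not tested. All 12 passed the filter, and 11 were higher and 1 (Ddit4) lower, against 40.2% higher and 39.8% lower among all tested genes. Past both cutoffs 9 of the 12 were higher, against 6.48% of all tested genes. The median log2 fold change of the list was 2.90, beside 0.20 for the 37 ER genes. Both sets were chosen with earlier results of these data known, so this contrast and that of the summed levels depend on the choice. PERK itself, Eif2ak3, was at 13.0, 14.0 and 13.3 TPM with IL-1β and 15.4, 15.6 and 15.6 TPM with NP-G2-044, only 1.18-fold higher (log2 fold change 0.24, SE 0.050, adjusted p = 2.39e-05) and thus far less changed than the sensors Ern1 and Atf6. Atf4 was at 170.7, 182.7 and 175.4 TPM and at 844.2, 855.7 and 821.7 TPM (log2 fold change 2.30, SE 0.030). Ddit3, which encodes the stress factor CHOP, was at 60.9, 68.3 and 67.0 TPM and at 1211, 1271 and 1195 TPM (log2 fold change 4.05, SE 0.039). Trib3 and Chac1, both known targets of ATF4, were at 7.09 ± 0.635 and 232.2 ± 1.80 TPM and at 11.5 ± 0.806 and 290.5 ± 0.750 TPM (SD, n = 3), with log2 fold changes of 5.06 and 4.68, and the largest change of the list was that of Atf3 (5.28). The windows of 5 of the 11 matched genes of this list (Asns, Atf3, Chac1, Nupr1 and Trib3) hold an AARE core, as do 3.97% of all windows. None of the 11 holds an ERSE, which is present in 0.119% of all windows. ATF4 acts through amino acid response elements and its targets are on the list, so these shares describe how the list was composed. The summed level of the list went from 780.8 ± 8.21 to 4859 ± 77.7 TPM, 6.22 times as much, against 1.19 times for the 38 ER genes.

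Other genes of degradation and entry were counted beside the shares of all tested genes, 40.2% higher and 39.8% lower. Of 20 further tested degradation genes 13 were higher and 6 lower, from Vcp, the p97 ATPase that pulls proteins from the ER (393.7 ± 8.80 and 259.6 ± 8.33 TPM, log2 fold change -0.57), to Ube2g2, a ubiquitin-conjugating enzyme (88.2 ± 1.84 and 185.5 ± 1.35 TPM, 1.10; SD, n = 3). Of 20 genes of the translocon, signal peptidase and signal recognition, 16 were higher and 1 lower, all within a log2 fold change of -0.12 (Sec62) to 0.72 (Srprb). Their medians were 0.30 and 0.20, and the 5th and 95th percentiles of all tested genes were -1.64 and 1.15.

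**Figure D5:**
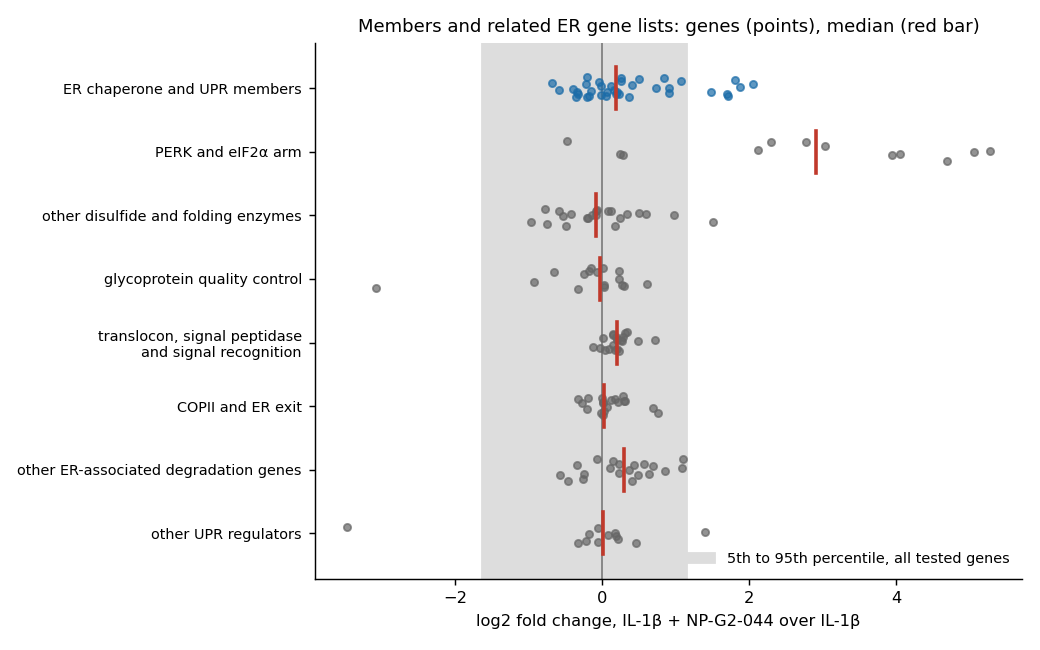
Log2 fold change (x axis, with over without NP-G2-044) of the 37 tested ER genes (blue, top row) and of 7 related lists (grey); each point is a tested gene, the red bar the median and the grey band the 5th to 95th percentile of all tested genes (-1.64 to 1.15). The PERK and eIF2α list stands farthest right with a median of 2.90, against 0.20 for the ER genes. The genes and lists were chosen with earlier results of these data known.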

How the data were processed

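RNA was sequenced from 3 IL-1β and 3 IL-1β plus NP-G2-044 libraries, grouped by the sample labels. The authors deposited expected counts of reads for every gene in every library, not normalized and with 10.17% to 11.06% of values not whole. The authors also deposited TPM and FPKM, computed within each library. The submitters' processing notes name cutadapt, HISAT2 2.0, StringTie and the mm10 build without roles or order. The counting tool, annotation and strand setting are, in the sources used here, not given. The authors' FPKM and group means were not used.

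Counts were rounded, filtered with filterByExpr (minimum count 10), scaled with TMM (factors 0.997 to 1.002) and tested with glmQLFit (robust) and glmQLFTest of edgeR 4.0.16 in R 4.3.3, 3 libraries against 3 without covariates, with Benjamini-Hochberg adjustment over 11983 genes. Cutoffs were an adjusted p of 0.05 and a log2 fold change of 1, as the study used. Log2 fold changes are with NP-G2-044 over without it, SE is its standard error, and the common biological coefficient of variation was 2.33%. The script was tested on simulated counts. Read totals set the precision, and libraries of a group differed by 1.54 to 2.39 times the squared difference that sampling gives, against 133.1 to 135.8 between groups. No library of a group was thus a copy of the reads of another. The values cannot show whether the libraries of a group came from separate cultures. Reads were whole in every library for 36 of the 38 genes, in 4 of 6 for Hspa5 and in none for Derl2.

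The genes and lists were chosen with earlier results of these data known. Per-library values are given for a fixed set of genes and for any gene past both cutoffs. Of each related list the lowest and highest gene is named, with 5 genes of the PERK and eIF2α list. Motifs were searched in RefSeq promoter windows (GRCm38.p6). Gene positions are from RefSeq and exon overlaps from GENCODE vM21, both on GRCm38, the assembly that mm10 denotes.

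Results were recomputed with scaling by DESeq2 size factors or by library size only, with DESeq2 1.42.0, no filter, at least 10 CPM in at least 3 libraries, limma 3.58.1 on log2(TPM + 1) and log2(TPM + 0.1), the replicate number as a block, and each library left out in turn.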

Additional observations from a re-analysis of the deposited data

How the results depend on the processing

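Under each of the 14 alternatives 20 of the tested ER genes were higher, 7 higher past both cutoffs and none lower past both, and none of the 31 called genes lost its call. The count of lower genes was 11, or 12 with the filter of at least 10 CPM (reads scaled to a common library total) and with both limma fits, where Hsp90b1 passed the test (log2 fold change -0.07 in each, adjusted p = 0.0194, 0.0152 and 0.0151). With the replicate block the counts were 20, 11, 7 and 0 and the median of the sensors was 1.47. Deviations of same-numbered libraries from their group means correlated with r between -0.08 and 0.04, and those of other combinations between -0.10 and 0.12. With 3 libraries a group this cannot show whether the numbers pair the samples. The median of the sensors was 1.42 with limma on log2(TPM + 1), and 1.43 to 1.53 when single libraries were left out. The sign turned for 2 genes that are not called: Creld2 (-0.032 to 0.014 when single libraries were left out, above 0 without IL replicate 1 at 0.014 and without ILN replicate 2 at 0.0059) and Syvn1 (-0.037 to 0.018, above 0 without ILN replicate 1). Over all tested genes, the counts past both cutoffs were 776 higher and 1211 lower, 484 and 680 with the 10 CPM filter, and 514 and 802 with limma on log2(TPM + 1); the construction of both leaves out or shrinks low genes. The median of all genes moved by at most 0.03 in any setting. There is 1 comparison with 3 libraries a group, cells that the labels and the methods name differently and no unstimulated group, Derl3 lies below the depth needed for a comparison, and p-values cover library spread only.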

Other observations

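Counted as a list, 22 further disulfide and folding enzymes of the ER comprised 8 higher, 11 lower and 3 not called. Among all tested genes 40.2% were higher and 39.8% lower. Ero1a and the other disulfide enzymes and thioredoxin-fold proteins named after the isomerases are part of this list. The 22 enzymes had a median log2 fold change of -0.08. They ran from Fkbp14, a prolyl isomerase that acts on collagens (20.2 ± 0.745 with IL-1β and 9.83 ± 0.571 TPM with NP-G2-044, SD, n = 3; log2 fold change -0.96), to Ero1a (1.51). Of 16 genes of glycoprotein quality control 5 were higher and 7 lower (median -0.03), from Clgn, which was below 1 TPM in every library, to Stt3a, a catalytic subunit of oligosaccharyltransferase (log2 fold change 0.61). Of 19 COPII and ER exit genes 8 were higher and 4 lower (median 0.03), from Lman1 (-0.33) to Sec24a (0.77).

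Of 12 other tested regulators of the response 6 were higher and 4 lower (median 0.02), against the same shares of all tested genes, 40.2% and 39.8%. Creb3l1 (OASIS), known for its role in collagen secretion by osteoblasts and a relative of Creb3l2, was at 7.92, 7.49 and 6.21 TPM with IL-1β and 0.58, 0.65 and 0.65 TPM with NP-G2-044 (log2 fold change -3.47, SE 0.18). Creb3l4, another relative, had the highest value of the list (1.02 ± 0.347 and 2.61 ± 0.122 TPM, SD, n = 3; log2 fold change 1.40).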
